A study of Homo sapiens with 6 samples.

Results

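RAG1, RASGRP1 and SLA are 3 genes of T cell development and T cell receptor signalling that were chosen by their log ratios on these arrays, as genes of the immature T lineage and its signalling that read above control siRNA. Which arrays that choice rested on is not recorded. They were read by 7 probes, 2 for RAG1, 2 for RASGRP1 and 3 for SLA, among 15246 probes that carried 4604 gene symbols. The study hybridised 6 arrays with RNA of the human T-cell leukaemia line Jurkat. Cells had received small interfering RNA (siRNA) against RPS3, a ribosomal protein that can also bind NF-kB, or against p65, which RELA encodes. Each siRNA had 3 arrays, 1 each after 1, 3 and 6 h of stimulation with 1 ug of anti-CD3/CD28, which engages the T cell receptor and its costimulator. On every array the Cy5 channel held the RPS3 or p65 siRNA sample. The Cy3 channel held cells given nonspecific siRNA and stimulated for the same time. The siRNA target was thus the only labelled difference between the groups, and no unstimulated cells and no array of control against control were analysed here. The sources used here do not give whether arrays of 1 time shared a control RNA or came from separate cultures.

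Values are log2 ratios, siRNA over control, centred on the median of each array. The log base and the direction were not stated with the values. Log2 is the likely base. Cy5 over Cy3 is the likely direction, from the dyes in the labels, and under it the RPS3 probe lay below 0 on all 3 RPS3 siRNA arrays (-2.50, -2.53 and -1.44 at 1, 3 and 6 h), the side of a knockdown, against 0.11, 0.0060 and 1.11 on p65 siRNA arrays. With a natural log every size would be larger on the log2 scale. A ratio carries no expression level, so it cannot be told whether Jurkat cells expressed a gene strongly or weakly, and T cell markers could not be checked by level. In RNA from a culture, more cells with a transcript and more transcript per cell cannot be told apart.

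RAG1 encodes the catalytic subunit of the recombinase that, with RAG2, cuts DNA to assemble T cell receptor and immunoglobulin genes in immature lymphocytes. RASGRP1 encodes a guanine nucleotide exchange factor that loads Ras with GTP. It is recruited by diacylglycerol, which phospholipase C makes after T cell receptor engagement, and it is needed for thymocyte selection in mice. SLA encodes the adaptor SLAP, which resembles Src kinases but lacks a kinase domain. In mouse thymocytes SLAP works with the ubiquitin ligase CBL to lower T cell receptor and CD247 levels.

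RAG1 lies on chromosome 11 (chr11:36510353-36579762, GRCh38.p14) and RASGRP1 on chromosome 15 (chr15:38488103-38564814). RefSeq windows before the annotated start were matched for 2 of the 3 genes, RAG1 and RASGRP1, and are shown because both genes read above control on all 3 RPS3 siRNA arrays. Each window is the 250 bases before the start, 5′ to 3′ on the gene's strand, RAG1 on the plus strand (chr11:36510103-36510352) and RASGRP1 on the minus strand (chr15:38564815-38565064), both of GRCh38.p14. Capitals mark matches, on either strand, to the E-box CANNTG, a site of E proteins such as TCF3, and to the NFAT core GGAAA.

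RAG1: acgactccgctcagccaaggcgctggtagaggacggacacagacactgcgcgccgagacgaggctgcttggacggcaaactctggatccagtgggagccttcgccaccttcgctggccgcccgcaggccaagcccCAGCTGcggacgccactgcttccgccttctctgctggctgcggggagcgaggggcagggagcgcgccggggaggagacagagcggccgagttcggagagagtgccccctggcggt

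RASGRP1: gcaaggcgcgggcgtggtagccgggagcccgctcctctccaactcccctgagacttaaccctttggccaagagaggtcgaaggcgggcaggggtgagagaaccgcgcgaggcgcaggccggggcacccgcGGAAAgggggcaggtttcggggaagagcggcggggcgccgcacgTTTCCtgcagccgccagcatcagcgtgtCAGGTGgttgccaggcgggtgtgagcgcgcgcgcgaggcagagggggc

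The RAG1 window held 1 E-box, whose first base was 115 bases before the start. Most of that window, E-box included, lies inside the span of the neighbouring gene TRAF6, which ends 81 bases from that of RAG1. The RASGRP1 window held 1 E-box, starting 48 bases before the start, and 2 NFAT cores, starting 120 and 76 bases before it, and none of these matches overlapped. An E-box was present in 61.8% and an NFAT core in 55.6% of 35116 windows of this length, so both are common. The other motifs searched were TGANTCA for AP-1 factors, TGNGGT for RUNX factors, GATAA for the GATA family, and the kB motif, each on both strands. These had 0 matches in either window, against 6.57%, 37.7%, 20.4% and 9.96% of all windows. The reference has 1 window per gene, while RAG1 has 8 RefSeq transcripts and RASGRP1 has 9, so each window is that of the outermost start and not necessarily of the start used in these cells. Guanine and cytosine made up 71.6% of the RASGRP1 window and 70% of the RAG1 window, against a median of 58% over all windows.

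Standard deviations of the log ratios ran from 0.26 to 0.51 over the arrays, and 5.40% to 15.1% of the probes were blank. The array pairs with the highest correlations over probes were the 6 h arrays of both siRNAs (r = 0.69), RPS3 siRNA at 1 h with p65 siRNA at 3 h (r = 0.47), and RPS3 siRNA at 3 h with p65 siRNA at 1 h (r = 0.46). The lowest correlation was r = -0.22, between p65 siRNA at 1 h and RPS3 siRNA at 6 h. ID numbers in the labels form 2 consecutive series. Series 1 holds RPS3 siRNA at 3 h and p65 siRNA at 1 h, and series 2 the other 4 arrays, including both 6 h arrays. The RPS3 probe averaged -2.16 ± 0.62 on RPS3 siRNA arrays and 0.41 ± 0.61 on p65 siRNA arrays (SD, n = 3 each). RELA averaged -0.54 ± 0.15 on RPS3 siRNA arrays and -0.49 ± 0.09 on p65 siRNA arrays, so its level relative to control was similar with either siRNA. Its 2 probes disagreed, with means of -1.07 and -0.01 on RPS3 siRNA arrays and -0.91 and -0.06 on p65 siRNA arrays.

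RASGRP1 read above control with RPS3 siRNA and near control with p65 siRNA. It read 0.43, 0.60 and 0.91 on RPS3 siRNA arrays at 1, 3 and 6 h, against -0.0050, -0.18 and 0.17 on p65 siRNA arrays at the same times. All RPS3 siRNA arrays lay above all p65 siRNA arrays. The means were 0.65 ± 0.25 with RPS3 siRNA, 1.57-fold of control, and -0.0060 ± 0.17 with p65 siRNA, 0.996-fold of control (SD, n = 3 each). At 1, 3 and 6 h, 91.1%, 99.7% and 96.8% of the 7267 tested features read below RASGRP1 on the RPS3 siRNA arrays. On the p65 siRNA arrays the shares below RASGRP1 were 45.7%, 28.4% and 71.0%. Its means ranked 28th from the top with RPS3 siRNA and 4101st with p65 siRNA. The choice of genes used these ratios against control, so they are given without a test.

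The 2 RASGRP1 probes showed the same order. Probe 30626_1 read 0.60, 0.81 and 0.97 with RPS3 siRNA at 1, 3 and 6 h, against 0.25, -0.02 and 0.03 with p65 siRNA. Probe 32010_1 read 0.25, 0.39 and 0.85 with RPS3 siRNA, against -0.26, -0.34 and 0.31 with p65 siRNA. The groups did not overlap on probe 30626_1, and on probe 32010_1 the p65 siRNA array at 6 h lay above the RPS3 siRNA array at 1 h. The probes differed by 0.12 to 0.42 on RPS3 siRNA arrays and by 0.28 to 0.52 on p65 siRNA arrays.

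SLA read above control with RPS3 siRNA, and with both siRNAs at 6 h. It read 0.17, 0.49 and 1.29 on RPS3 siRNA arrays at 1, 3 and 6 h, against -0.22, -0.42 and 0.60 on p65 siRNA arrays. RPS3 siRNA was above p65 siRNA at each time, but the groups overlapped, because the p65 siRNA array at 6 h lay above the RPS3 siRNA arrays at 1 and 3 h. The means were 0.65 ± 0.58 with RPS3 siRNA, 1.57-fold of control, and -0.01 ± 0.54 with p65 siRNA, 0.992-fold of control (SD, n = 3 each). Leaving out the RPS3 siRNA 6 h array took the RPS3 siRNA mean to 0.33. The p65 siRNA mean was -0.32 with the 6 h array left out, 0.19 with that at 3 h left out and 0.09 with that at 1 h left out, so its sign is not settled. That of RASGRP1 was likewise 0.08 without the p65 siRNA 3 h array and -0.09 without the 6 h array. With p65 siRNA both means lay within 1 SD of 0, although the genes were described as reading above control. Each of the 3 genes was above 0 on all 3 RPS3 siRNA arrays, as were 16.2% of all tested features, and only RAG1 on all 3 p65 siRNA arrays, as were 13.2%. The choice fixes these counts in part, and nothing is read from them.

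The 3 SLA probes differed in size. Probe 19385_1 read 0.07, 0.56 and 2.40 with RPS3 siRNA at 1, 3 and 6 h, against -0.31, -0.71 and 1.39 with p65 siRNA. Probe 24820_1 read 0.16, 0.70 and 1.24 with RPS3 siRNA, against -0.19, -0.18 and 0.36 with p65 siRNA. Probe 31148_1 read 0.28, 0.20 and 0.24 with RPS3 siRNA, against -0.15, -0.36 and 0.05 with p65 siRNA. All 3 probes lay above 0 on each RPS3 siRNA array and below 0 on the p65 siRNA arrays at 1 and 3 h. The high 6 h value of the gene rested on the first probe, and to a lesser degree on the second. At 6 h the probes spanned 2.15 with RPS3 siRNA and 1.34 with p65 siRNA, so the gene mean at that time depends on which probe is read. The annotation pairs all 3 probes with 1 transcript accession, and their positions in it are not known here.

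RAG1 was high with both siRNAs. It read 0.26, 0.38 and 0.51 on RPS3 siRNA arrays at 1, 3 and 6 h, against 0.38, 0.54 and 0.52 on p65 siRNA arrays. All 6 arrays lay above 0 and the groups overlapped. The siRNA sample was in Cy5 on every array, so a dye effect shared by all arrays cannot be told apart from a reading above control. Such an effect would cancel in the difference between the siRNAs, given below. The means were 0.38 ± 0.12 with RPS3 siRNA, 1.30-fold of control, and 0.48 ± 0.09 with p65 siRNA, 1.39-fold of control (SD, n = 3 each). RAG1 was above 82.2% to 96.9% of tested features on RPS3 siRNA arrays and above 92.5% to 95.5% on p65 siRNA arrays. Being above 0 on all 6 arrays was the case for 4.35% of the features, and since RAG1 was chosen by its ratios nothing is read from that share.

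The RAG1 probes were both above 0 on every array but did not move together. Probe 16726_1 read 0.16, 0.30 and 0.32 with RPS3 siRNA at 1, 3 and 6 h, against 0.35, 0.90 and 0.37 with p65 siRNA. Probe 28915_1 read 0.36, 0.45 and 0.69 with RPS3 siRNA, against 0.40, 0.18 and 0.67 with p65 siRNA. The first probe was highest on the p65 siRNA array at 3 h, where the second was lowest, and over the 6 arrays their correlation was r = -0.55. For RASGRP1 the correlation between probes was 0.78, and for SLA it ran from 0.64 to 0.90, over the same 6 arrays. The gene mean of RAG1 therefore hides a disagreement of up to 0.72 between its probes, reached at 3 h with p65 siRNA.

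**Figure D1:**
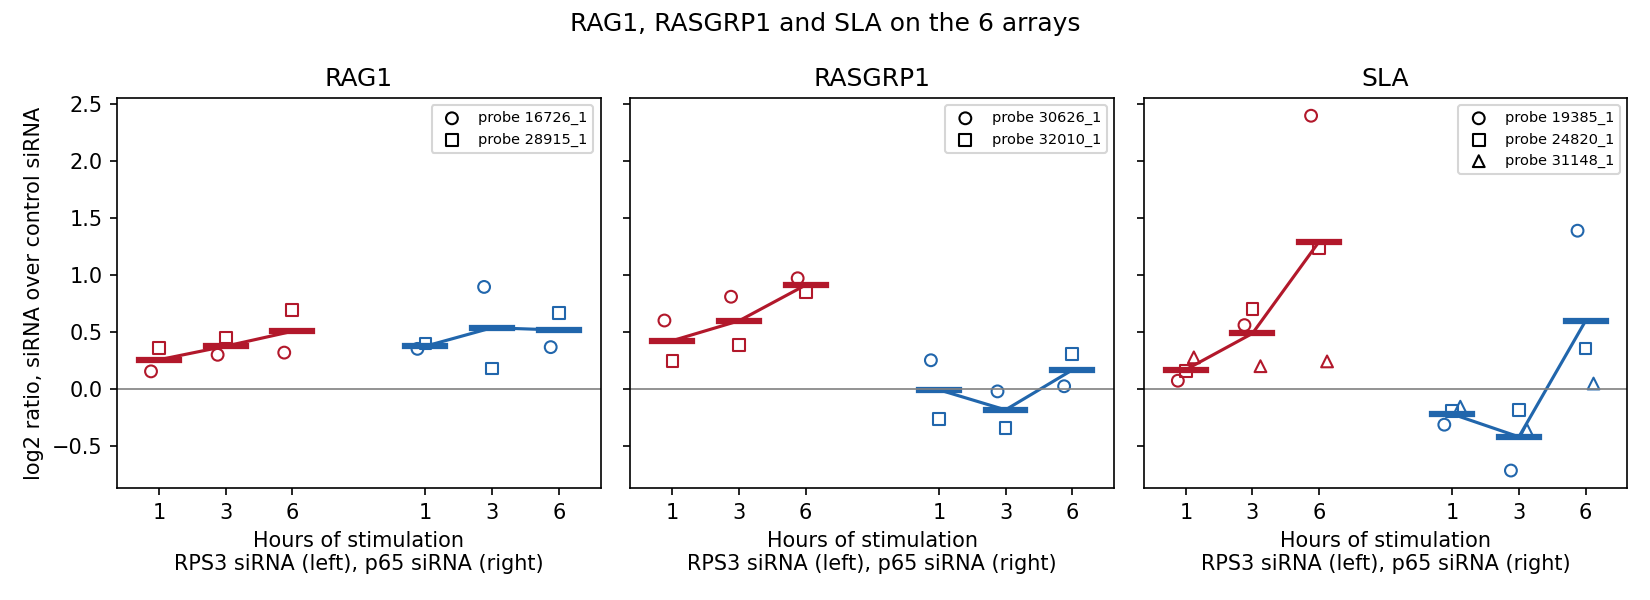
Log2 ratios (siRNA over control siRNA) of RAG1, RASGRP1 and SLA against hours of stimulation, with RPS3 siRNA arrays in red on the left of each panel and p65 siRNA arrays in blue on the right. Open symbols are single probes, and thick bars joined by lines are their means, which for RASGRP1 lie at 0.43 to 0.91 with RPS3 siRNA and at -0.18 to 0.17 with p65 siRNA.

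**Figure D2:**
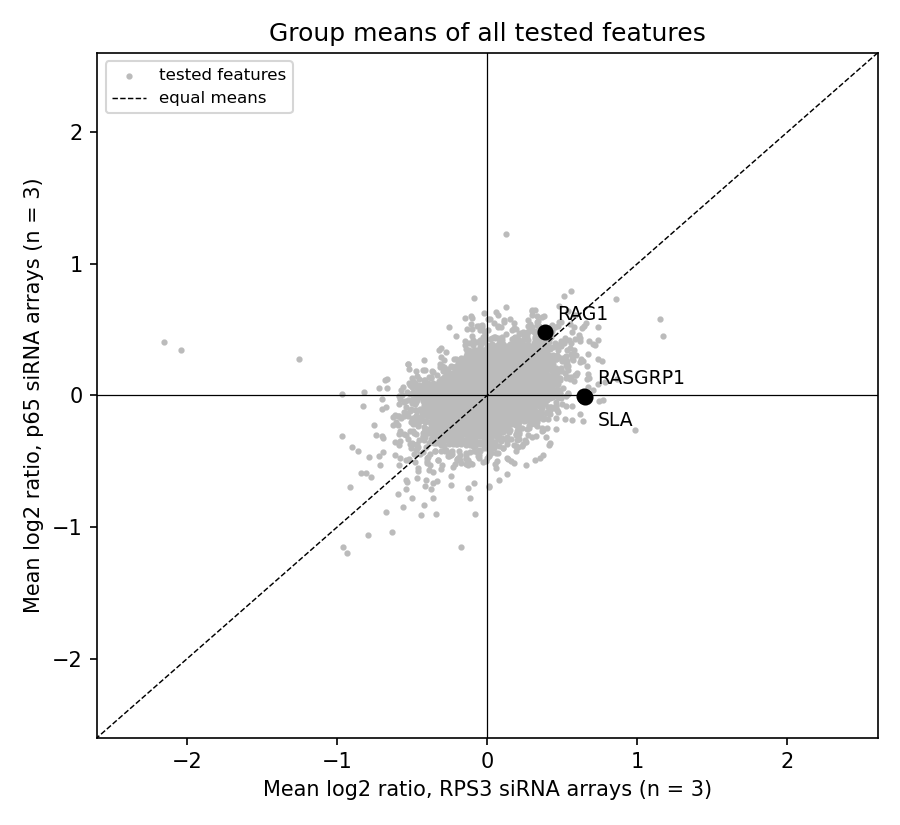
Mean log2 ratio on the 3 RPS3 siRNA arrays (horizontal axis) against that on the 3 p65 siRNA arrays (vertical axis) for the 7267 tested features in grey, with the 3 genes in black. RASGRP1 and SLA lie at 0.65 on the horizontal axis and near 0 on the vertical one, so their points almost coincide, while RAG1 lies near the dashed line of equal means.

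The difference between the knockdowns, RPS3 siRNA minus p65 siRNA, was tested with limma over all 7267 features. It comes from the same arrays whose ratios led to the choice, so it is not independent of that choice. RASGRP1 differed by 0.65 (95% interval 0.23 to 1.08, limma unadjusted p = 0.0076, adjusted p = 0.9996) and did not pass. SLA differed by 0.66 (95% interval -0.14 to 1.47, limma unadjusted p = 0.0939, adjusted p = 0.9996), and RAG1 by -0.10 (95% interval -0.45 to 0.25, adjusted p = 0.9996). The intervals are unadjusted. Limma called 0 of 7267 features, 0% of them, against 185 with an unadjusted p under 0.05. RASGRP1 ranked 24th by unadjusted p and 31st by size from the top.

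Matched by time, RPS3 siRNA minus p65 siRNA was 0.43, 0.78 and 0.75 for RASGRP1 at 1, 3 and 6 h. For SLA it was 0.39, 0.91 and 0.69, and for RAG1 -0.12, -0.16 and -0.01. RASGRP1 and SLA were thus higher with RPS3 siRNA at all 3 times, as were 12.9% of the tested features. Both arrays of a matched pair belonged to the same series of ID numbers at 6 h only. All RPS3 siRNA arrays lay above all p65 siRNA arrays for RASGRP1, as for 3.11% of the features. An exact 2-sided permutation test of 3 against 3 arrays gave p = 0.10 for RASGRP1, the smallest it can give, and p = 0.30 for SLA and for RAG1. Adjusted over the 3 tests, the exact permutation p was 0.30 for each.

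Differences within each series of ID numbers had the sign of the pooled one for RASGRP1 and SLA. For RASGRP1 they were 0.61 in series 1, with 1 array per siRNA, and 0.68 in series 2, with 2 arrays per siRNA. For SLA they were 0.71 in series 1 and 0.64 in series 2, and for RAG1 0.00 in series 1 and -0.15 in series 2. Times also differ between the siRNAs in each series. The SLA difference was 0.34 without the RPS3 siRNA 6 h array, which leaves the p65 siRNA 6 h array unmatched in time. Without both 6 h arrays it was 0.65. By probe, the difference was 0.71 and 0.60 for RASGRP1, 0.89, 0.71 and 0.39 for SLA, and -0.28 and 0.09 for RAG1, so the RAG1 probes differed in sign.

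The second factor of the design was time, tested as a slope per hour of the log2 ratios with both siRNAs in the fit. SLA had a slope of 0.20 per hour (95% interval 0.10 to 0.31, limma unadjusted p = 0.0026, adjusted p = 0.101). It averaged 0.95 on the 6 h arrays and 0.0065 on the arrays at 1 and 3 h, a difference of 0.96 with RPS3 siRNA and 0.92 with p65 siRNA. Both 6 h arrays lay above the other 4 for SLA, as they did for 22.4% of all tested features. RASGRP1 had a slope of 0.07 per hour (adjusted p = 0.273) and RAG1 one of 0.04 per hour (adjusted p = 0.500 by limma). The RASGRP1 probes differed in slope, with 0.02 per hour on probe 30626_1 (limma adjusted p = 0.836) and 0.12 on probe 32010_1 (limma adjusted p = 0.111). Limma called 0 of 7267 slopes, 0%, against 1700 with an unadjusted p under 0.05, 1032 of them upward.

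The slope of SLA depended on single arrays. It passed without the p65 siRNA 1 h array (0.26 per hour, limma adjusted p = 0.0239), when 628 of 7409 features passed, 8.48%. It also passed without the p65 siRNA 3 h array (0.20 per hour, limma adjusted p = 0.0424), when 206 of 7430 passed, 2.77%. Without both 6 h arrays it was 0.03 per hour. By probe the SLA slope was 0.42, 0.16 and 0.02 per hour, with limma adjusted p of 0.0589, 0.0840 and 0.762. All 6 h arrays belong to series 2 of the ID numbers. With the series as a covariate the slope was 0.22 per hour (adjusted p = 0.185).

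**Figure D3:**
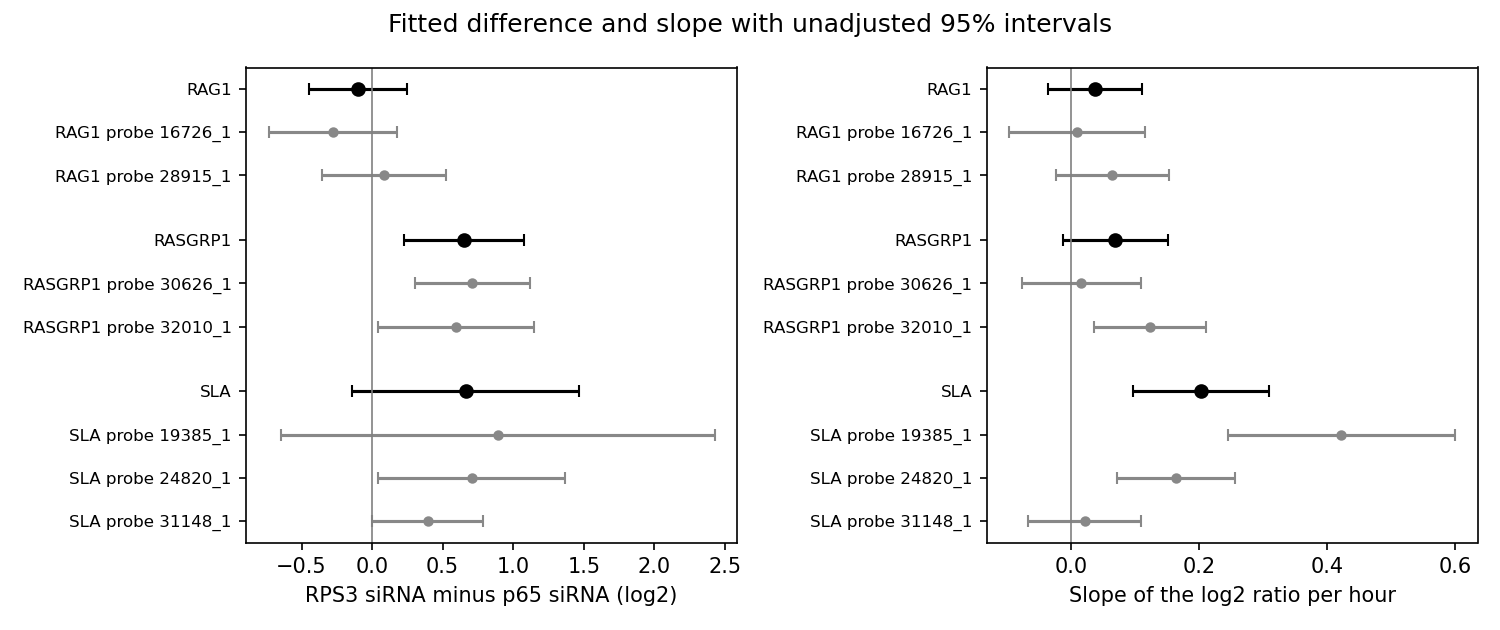
Left, the fitted difference RPS3 siRNA minus p65 siRNA (log2), and right, the fitted slope per hour of stimulation (log2), for the gene means (black) and single probes (grey). Bars are unadjusted 95% limma intervals of the fits without a time block. The RASGRP1 difference of 0.65 and the SLA slope of 0.20 are the gene values whose bars lie clear of 0. Neither passed after adjustment.

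Genes around the members were taken from lists, counted here without the members, and 0 list genes passed limma at an adjusted p under 0.05 in any of the contrasts. Proximal T cell receptor signalling and its attenuators, the list of SLA, had 25 of 35 tested genes higher with RPS3 siRNA than with p65 siRNA. The median difference was 0.12, against 49.2% of all features above 0 and a median of -0.0032. By limma, 1 gene had an unadjusted p under 0.05. Array medians of this list were -0.029, 0.070 and 0.104 with RPS3 siRNA at 1, 3 and 6 h. With p65 siRNA they were -0.022, -0.234 and 0.035, so the gap was widest at 3 h and absent at 1 h. ZAP70, the kinase that binds the phosphorylated receptor, read -0.04, 0.28 and 0.93 on RPS3 siRNA arrays at 1, 3 and 6 h, against -0.41, -0.35 and 0.36 on p65 siRNA arrays. It was above p65 siRNA at every time and highest at 6 h with each siRNA. Its difference was 0.52 and its slope 0.18 per hour (limma adjusted p = 0.0884).

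None of CD247, LCK, CBL, CBLB and LAT was above p65 siRNA at every time. CD247, the receptor zeta chain, averaged 0.08 ± 0.57 with RPS3 siRNA and 0.10 ± 0.39 with p65 siRNA (SD, n = 3 each, as in the rest of this account). LCK, the kinase that phosphorylates the receptor chains, averaged 0.17 ± 0.51 with RPS3 siRNA and 0.35 ± 0.32 with p65 siRNA. The ubiquitin ligase CBL averaged 0.32 ± 0.21 with RPS3 siRNA and 0.11 ± 0.40 with p65 siRNA, and its relative CBLB -0.03 ± 0.16 with RPS3 siRNA and -0.11 ± 0.14 with p65 siRNA. The adaptor LAT averaged 0.18 ± 0.38 with RPS3 siRNA and 0.20 ± 0.17 with p65 siRNA. LCK, CBL and LAT had the highest means over all 6 arrays in the list. The lowest were PTPRC (CD45), TRAT1 and the activation marker CD69. CD69 averaged 0.04 ± 0.41 with RPS3 siRNA and -0.40 ± 0.25 with p65 siRNA. PTPRC averaged -0.09 ± 0.14 with RPS3 siRNA and -0.36 ± 0.26 with p65 siRNA, and TRAT1 -0.26 ± 0.27 with RPS3 siRNA and -0.13 ± 0.34 with p65 siRNA.

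Genes of Ras activation, the list of RASGRP1, had 14 of 27 tested genes with a difference above 0 and a median difference of 0.01. RASGRP1 lay above each of the 27, whose differences reached at most 0.26. Since RASGRP1 was chosen by its ratios on these arrays, nothing is read from that position. The exchange factors SOS1 and SOS2, which also load Ras, had the highest means of the list. SOS1 averaged 0.17 ± 0.09 with RPS3 siRNA and 0.27 ± 0.40 with p65 siRNA. SOS2, read by 1 probe, averaged -0.03 ± 0.32 with RPS3 siRNA and 0.52 ± 1.32 with p65 siRNA. HRAS averaged 0.06 ± 0.39 with RPS3 siRNA and -0.01 ± 0.40 with p65 siRNA. The diacylglycerol kinases remove the lipid that recruits RASGRP1. DGKA averaged 0.07 ± 0.14 with RPS3 siRNA and -0.03 ± 0.07 with p65 siRNA, DGKZ -0.03 ± 0.20 with RPS3 siRNA and -0.02 ± 0.26 with p65 siRNA, and DGKD 0.14 ± 0.06 with RPS3 siRNA and 0.12 ± 0.12 with p65 siRNA. The lowest means were those of the phosphatase gene DUSP5, the Ras pathway inhibitor SPRED2 and the kinase PRKCD. DUSP5 averaged -0.55 ± 0.20 with RPS3 siRNA and -0.13 ± 0.07 with p65 siRNA, SPRED2 -0.18 ± 0.70 with RPS3 siRNA and -0.26 ± 0.87 with p65 siRNA, and PRKCD -0.11 ± 0.27 with RPS3 siRNA and -0.28 ± 0.17 with p65 siRNA.

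The V(D)J recombination and end joining list, in which RAG1 acts, had 7 of 12 tested genes above 0 with RPS3 siRNA and 5 of 12 with p65 siRNA. The list median was 0.01 with RPS3 siRNA and -0.03 with p65 siRNA, where all features had 52.9% above 0 and a median of 0.01 with RPS3 siRNA, and 54.7% and 0.02 with p65 siRNA. DCLRE1C, the Artemis nuclease that opens hairpin ends, was highest over all 6 arrays, with 0.30 ± 0.55 with RPS3 siRNA and 0.14 ± 0.62 with p65 siRNA. XRCC6, a Ku subunit, averaged 0.14 ± 0.18 with RPS3 siRNA and 0.13 ± 0.25 with p65 siRNA, and TP53BP1 0.08 ± 0.06 with RPS3 siRNA and 0.11 ± 0.21 with p65 siRNA. HMGB1 and HMGB2, DNA-bending proteins that assist RAG1 and RAG2 in cutting, were lowest together with the histone gene H2AX. HMGB1 averaged -0.50 ± 0.03 with RPS3 siRNA and -0.18 ± 0.20 with p65 siRNA, HMGB2 -0.38 ± 0.17 with RPS3 siRNA and 0.02 ± 0.18 with p65 siRNA, and H2AX -0.25 ± 0.06 with RPS3 siRNA and -0.04 ± 0.07 with p65 siRNA.

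Immature T lineage genes and factors, the list that also holds RAG1, had 21 of 36 tested genes above 0 with RPS3 siRNA, with a median of 0.06, and 18 of 36 with p65 siRNA, with a median of 0.0036. Of all features, 52.9% were above 0 with RPS3 siRNA and 54.7% with p65 siRNA. RAG1 averaged 0.43 over all 6 arrays, and the next highest gene of that list, CD8B, averaged 0.27. Since RAG1 was chosen by its ratios, nothing is read from that order. CD8B averaged 0.19 ± 0.03 with RPS3 siRNA and 0.36 ± 0.69 with p65 siRNA, and ADA, adenosine deaminase, 0.06 ± 0.19 with RPS3 siRNA and 0.34 ± 0.20 with p65 siRNA. CD2, an adhesion receptor of T cells, averaged 0.46 ± 0.10 with RPS3 siRNA and -0.08 ± 0.09 with p65 siRNA. The lowest means were those of the transcription factor genes ETS1, GATA3 and RUNX3. ETS1 averaged -0.13 ± 0.21 with RPS3 siRNA and -0.52 ± 0.44 with p65 siRNA, GATA3 -0.21 ± 0.40 with RPS3 siRNA and -0.37 ± 0.16 with p65 siRNA, and RUNX3 -0.20 ± 0.15 with RPS3 siRNA and -0.37 ± 0.12 with p65 siRNA. TCF3, which encodes E2A, averaged 0.12 ± 0.32 with RPS3 siRNA and 0.11 ± 0.09 with p65 siRNA. FOXO1, an activator of RAG genes in mouse B cells, averaged -0.05 ± 0.18 with RPS3 siRNA and -0.30 ± 0.19 with p65 siRNA, and NOTCH1 0.10 ± 0.33 with RPS3 siRNA and -0.17 ± 0.36 with p65 siRNA.

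Markers of other cell lineages had 10 of 20 tested genes above 0 with RPS3 siRNA, with a median of 0.0049, and 16 of 20 with p65 siRNA, with a median of 0.09. Over all features the share above 0 was 52.9% with RPS3 siRNA, with a median of 0.01, and 54.7% with p65 siRNA, with a median of 0.02. Array medians of this list ran from -0.04 to 0.08 with RPS3 siRNA and from 0.0024 to 0.24 with p65 siRNA, the highest at 3 h. The highest were NCAM1 (0.28 ± 0.30 with RPS3 siRNA, 0.20 ± 0.23 with p65 siRNA), MS4A1 (0.24 ± 0.09 with RPS3 siRNA and 0.17 ± 0.25 with p65 siRNA) and FCGR3A (0.28 ± 0.35 with RPS3 siRNA and 0.09 ± 0.50 with p65 siRNA). The lowest were CD68 (-0.27 ± 0.15 with RPS3 siRNA and -0.15 ± 0.11 with p65 siRNA), CD14 (-0.36 ± 0.30 with RPS3 siRNA and 0.08 ± 0.31 with p65 siRNA) and VIM (-0.04 ± 0.21 with RPS3 siRNA and -0.10 ± 0.28 with p65 siRNA). The part of these genes in the values of RAG1, RASGRP1 and SLA was not tested.

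**Figure D4:**
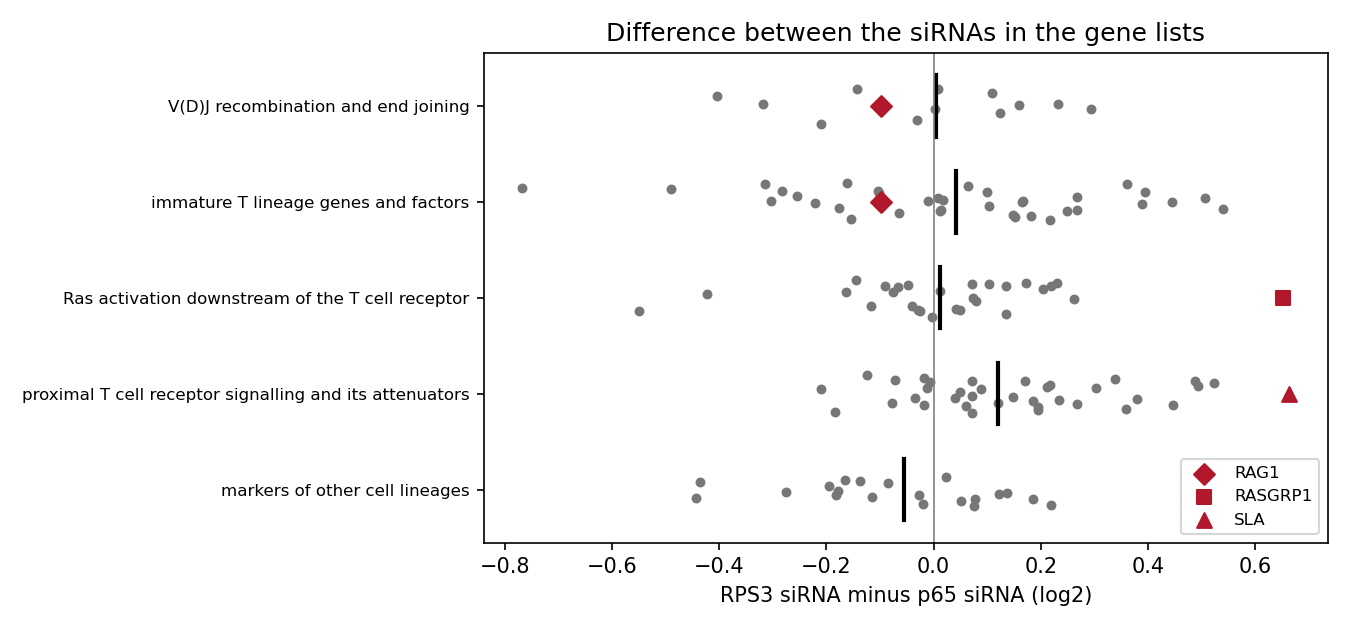
RPS3 siRNA minus p65 siRNA (log2, horizontal axis) for the tested genes of each list in grey, their median as a black bar, and RAG1, RASGRP1 and SLA in red in the lists that hold them. RASGRP1 at 0.65 and SLA at 0.66 lie to the right of every other gene of their lists. RAG1 at -0.10 lies inside the range of both of its lists. The genes in red were chosen by their ratios on these arrays, so nothing is read from these positions.

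Likeness to each gene was measured as the root mean square difference over the 6 arrays among 3931 other named genes, and it describes these arrays only. Closest to SLA were PGGHG (0.13, r = 0.99), PRMT1 (0.19, r = 0.96), LARP4B (0.21, r = 0.97), OTUB1 (0.21, r = 0.93) and AATF (0.22, r = 0.98), where the median gene was at 0.68. Closest to RASGRP1 were DHX16 (0.16, r = 0.95), LGALS1 (0.16, r = 0.96), PRKAB1 (0.17, r = 0.91), RAP2A (0.17, r = 0.91) and PPP3CC (0.18, r = 0.92), with a median of 0.54. PPP3CC encodes a catalytic subunit of calcineurin, and RAP2A a small GTPase of the Ras family. Closest to RAG1 were HEBP1 (0.12, r = 0.37), TMEM203 (0.13, r = 0.17), SH2D3C (0.16, r = 0.22), CD320 (0.17, r = 0.26) and NDE1 (0.17, r = 0.92). These RAG1 neighbours sat at a similar height, and only NDE1 also correlated strongly with RAG1 over the arrays, although the order of their highest arrays differed. Among the members, RASGRP1 ranked 23rd in likeness to SLA (0.29, r = 0.89), and SLA ranked 95th in likeness to RASGRP1. RAG1 ranked 931st in likeness to SLA (r = 0.19) and 624th in likeness to RASGRP1 (r = -0.17). Since the members were chosen by their ratios on these arrays, nothing is read from these ranks.

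**Figure D5:**
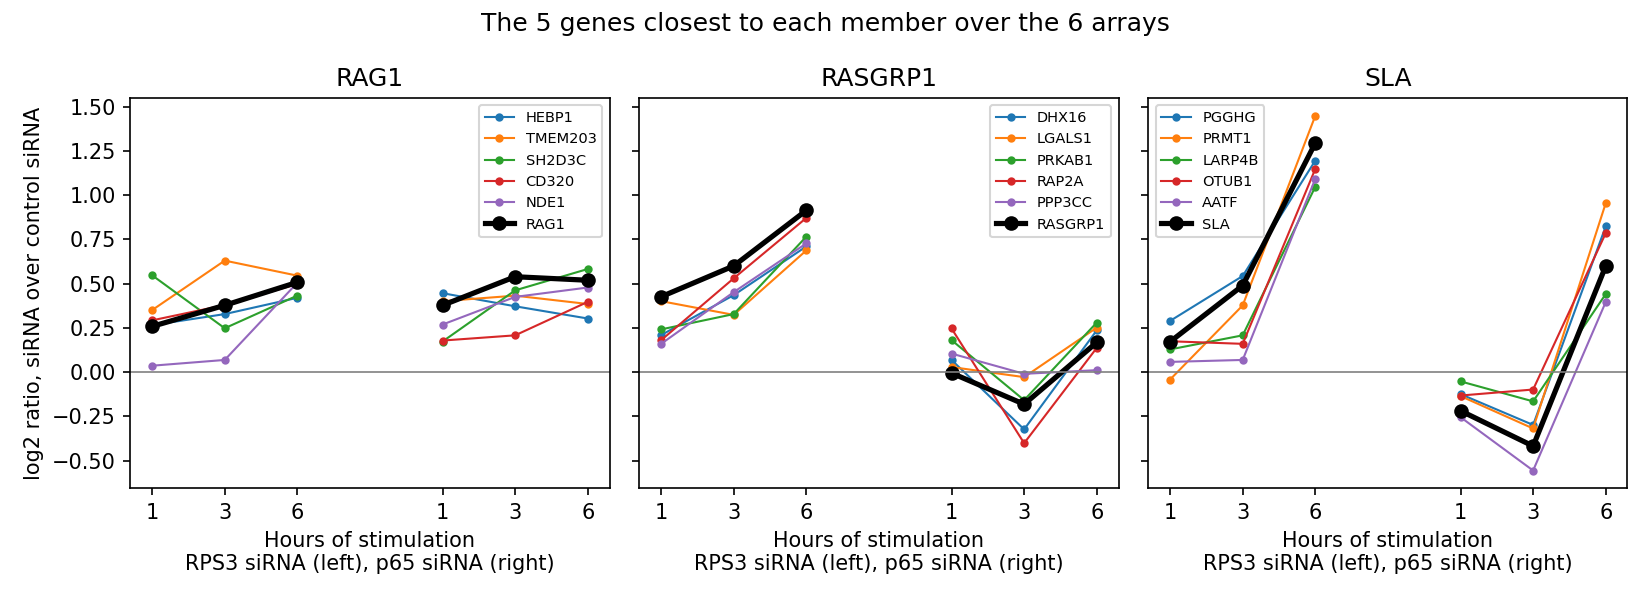
Log2 ratios (siRNA over control siRNA) of RAG1, RASGRP1 and SLA (black) and the 5 genes closest to each (colours) against hours of stimulation, RPS3 siRNA left and p65 siRNA right in each panel. The genes near SLA are highest at 6 h with both siRNAs, at 1.05 to 1.45 with RPS3 siRNA and 0.40 to 0.95 with p65 siRNA.

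SLA lies on chromosome 8 inside the span of TG, the thyroglobulin gene, and has no promoter window here. Of the nearest protein-coding neighbours, TRAF6 alone had values on all 6 arrays. TRAF6, a ubiquitin ligase gene whose span ends 81 bases from that of RAG1, read 0.03, 0.24 and -0.04 on RPS3 siRNA arrays at 1, 3 and 6 h, against 0.08, -0.10 and -0.15 on p65 siRNA arrays. RAG1 was above it on every array.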

How the data were processed

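The data were 6 two-colour arrays of stimulated Jurkat cells, and the deposited values were read as log2 ratios per probe. Array medians were -0.0185 to 0.007 as deposited. The log base, direction, background correction and normalization are not stated in the sources used. Each array was centred on its median, probes with 1 symbol in the platform annotation were averaged by gene (10169 of 15246 probes; 10128 matched a current gene record), and 7267 features with values on all 6 arrays entered a linear model per feature (limma 3.58.1, R 4.3.3; a mean per siRNA, or a slope per hour with siRNA in the model, then eBayes), with the 3 times of a siRNA as its replicates. An adjusted p (Benjamini-Hochberg over all features) under 0.05 passed. The fits were run on simulated data with independent noise on each array, to check the mean size of the recovered changes. Those data held no deviations shared by arrays of the same time, so they do not test the p-values given here. All 3 genes passed the filter with every probe.

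The genes and lists were chosen with earlier results of these data known. Genes named from a list are the 3 highest and 3 lowest means over all arrays, plus partners fixed for each gene and the 5 genes closest to it. As separate cultures are not recorded, p-values cover the spread among these arrays alone, which may be technical. For the difference without a time block, that spread also includes changes between the 3 times of a siRNA. Having 3 arrays per siRNA limits the precision, and brightness over background cannot be read from ratios. Alternatives were other centring, probe summaries, filters, a time block, the ID series, single probes and arrays left out.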

Additional observations from a re-analysis of the deposited data

How the results depend on the processing

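The means of RAG1, RASGRP1 and SLA against control moved by less than their SD under every alternative, but for several alternatives this was fixed in advance. Leaving out 1 of 3 arrays cannot move a mean by its SD, and the time block and the ID series leave it unchanged. By single probe, the SLA mean with RPS3 siRNA ran from 0.24 to 1.01. The differences of RASGRP1 (0.52 to 0.76) and SLA (0.34 to 0.97) stayed above 0 and did not pass. Leaving out 1 array gave differences of -0.16 to -0.04 for RAG1, and slopes of 0.17 to 0.26 per hour for SLA, which passed without the p65 siRNA 1 h or 3 h array. Signs turned for the RAG1 difference on probe 28915_1 (0.0855), the RAG1 slope with quantile normalization (-0.0074) and the RASGRP1 slope without both 6 h arrays (-0.0005). The p65 siRNA means of RASGRP1 and SLA, close to 0, also changed sign: RASGRP1 was 0.0129 with quantile normalization, 0.0815 without the p65 siRNA 3 h array and 0.087 on probe 30626_1, and SLA was 0.0908 with the p65 siRNA array at 1 h left out, 0.1905 with that at 3 h left out and 0.122 on probe 19385_1. The cause was not tested. Features called on RPS3 siRNA arrays numbered 0, but 2 with quantile normalization, 3 with the time point as a replicate block, 2 without both 6 h arrays, 7 with single probes and 0 to 2 with 1 array left out. For the difference there were 0, but 1 with quantile normalization and 2 with the block, and none of these was RAG1, RASGRP1 or SLA. For the slope there were 0, but 1 with quantile normalization and 0 to 628 with 1 array left out. The block pairs arrays by time, whose deviations from the group means correlated at 0.01, 0.10 and 0.76 at 1, 3 and 6 h. With it the limma adjusted p of the difference was 0.771 for RASGRP1 and for SLA.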

Other observations

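Close partners of the 3 genes were measured in part. SLA2, the paralog of SLA, had 1 probe, which read 0.86, 0.13 and 0.21 on RPS3 siRNA arrays at 1, 3 and 6 h, against 0.11 and 0.38 on p65 siRNA arrays at 1 and 6 h, with a blank at 3 h. All 5 values lay above 0, without the 6 h step seen for SLA. DNTT, the polymerase that adds bases at the joints RAG1 opens, read 0.49 and -0.20 on RPS3 siRNA arrays at 1 and 3 h, with a blank at 6 h, against -0.15, 0.68 and -0.12 on p65 siRNA arrays. RAG2, the partner subunit of RAG1, read 0.67 at 1 h with p65 siRNA on its 1 probe, which was blank on the other 5 arrays.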
